A study of Mus musculus with 10 samples.

Results

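Glucocorticoids such as corticosterone are released by the adrenal gland during stress and infection, and in the brain they bind a receptor in the cytoplasm that enters the nucleus and switches on a set of target genes. Some of the products feed back on the hormone's own receptor, and others restrain inflammatory signalling, growth signalling or glucose use. The 10 genes described here, Fkbp5, Tsc22d3, Sgk1, Zbtb16, Errfi1, Pdk4, Ddit4, Klf9, Fam107a and Cdkn1a, are known from other work to be induced by glucocorticoids in brain or in cultured cells. They were taken by name, out of 18193 genes that had a probe set naming 1 gene only, and every probe set that named a single member was used, 27 in all.

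RNA came from the preoptic region of the hypothalamus, cut out by laser capture, of 5 mice labelled mPGES-1 knockout and 5 mice labelled wild-type. All were on the DBA1/lacJ background and all had received 120 µg/kg of the bacterial product lipopolysaccharide (LPS) into the peritoneum 5 h before the brains were removed. mPGES-1 (gene Ptges) is the inducible enzyme that makes prostaglandin E2, the mediator of fever. The labels do not give the mice's age or the part of Ptges that was deleted. No mice without LPS and no hormone measurements were analysed here, so the induction of these genes by LPS or by corticosterone was not measured, only differences between genotypes and between mice 5 h after LPS. Each mouse was measured on 1 array, after 2 rounds of RNA amplification. Because the tissue is a mixture, fewer cells of a type and less RNA per cell cannot be told apart in any value below.

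The Ptges transcript was not lower in mice labelled knockout. Probe set 1439747_at gave 49.96 ± 24.5 in labelled knockout and 4.54 ± 3.09 in labelled wild-type mice (SD, n = 5 each; two-sided exact permutation test on the signal, p = 0.0079, adjusted over the 3 Ptges probe sets 0.024; limma adjusted p over all probe sets 0.111). With each array centred on its median, the limma difference of this probe set was 1.88 on the log2 scale, with an adjusted p of 0.0143. Under that setting 550 of 45037 probe sets had a limma adjusted p below 0.05, 545 of them higher in labelled knockout. Signals are linear array intensities. The other 2 Ptges probe sets gave 40.2 ± 21.5 and 37.3 ± 15.9 in labelled knockout and 13.4 ± 13.6 and 30.7 ± 19.7 in labelled wild-type mice. A probe set outside the deleted part of a gene checks nothing, so these values do not settle the labels, and every direction below rests on them. Of 7 genes listed as markers of the preoptic region, 7 were above the dimmest 40% of probe sets and 7 were higher in labelled knockout, with a mean log2 of 8.16 in labelled knockout and 7.82 in labelled wild-type mice. Striatal projection neuron markers were higher in labelled knockout in 6 of 7. Their summed signals ran between 1547 and 4482 in labelled knockout and between 1109 and 1576 in labelled wild-type mice. Choroid plexus markers were higher in labelled knockout in 2 of 4. Their sums ran between 125.8 and 6217 in labelled knockout and between 236.7 and 525.3 in labelled wild-type mice. Their mean log2 was 5.78 in labelled knockout and 5.87 in labelled wild-type mice. Endothelial markers were higher in labelled knockout in 1 of 5, with sums of 543.4 to 929.4 in labelled knockout and 743 to 1569 in labelled wild-type mice. Microglial markers were higher in 2 of 5, with sums of 4748 to 6905 in labelled knockout and 6646 to 10310 in labelled wild-type mice. Astrocyte markers were higher in 2 of 5, with sums of 8377 to 12780 in labelled knockout and 11550 to 15650 in labelled wild-type mice. In the same order, oligodendrocyte markers were higher in 2 of 5 (10350 to 15990 and 11380 to 17000) and neuron markers in 2 of 4 (8505 to 16540 and 8300 to 10600). Of the striatal and choroid plexus lists Drd2, Ppp1r1b, Folr1 and Aqp1 were among the dimmest 40%, no marker passed the test between groups (limma), and the part of neighbouring tissue in the results below was not tested beyond the relations given there. Control RNAs that were added at hybridization had mean log2 signals between 9.91 and 10.9 on labelled knockout arrays and between 10.6 and 11.93 on labelled wild-type arrays. Poly-A spike-in RNAs gave signal on 7 arrays, called spike-positive here, and not on KO replicate 3 and WT replicates 2 and 5.

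Glucocorticoid receptors bind DNA at a palindrome with a gap of 3 bases in its middle. The motif searched was GNACA, any 3 bases and TGTNC, which reads the same on both strands, and the windows were RefSeq promoters (assembly GRCm38.p6, 250 bases before to 50 after each annotated start). It was in 156 of 32851 windows (0.475%) and 145 of 27025 genes (0.537%), and among the members in 3 of 20 windows and 2 of the 9 genes that had a window, Sgk1 and Fam107a. The shorter core, ACA and TGT with 3 bases between, lies inside every such match and was in 6.85% of all windows. It was found in 1 more Sgk1 window and in no other member. Zbtb16 had no window in the table. The windows below are shown because they carry the only full matches among the members. The match is in capitals, with its core beginning at -186 (Sgk1) and -118 (Fam107a) from the start. A second Fam107a window, from a start 2 bases away, holds the same match.

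Sgk1, chr10:21993640-21993939, plus strand: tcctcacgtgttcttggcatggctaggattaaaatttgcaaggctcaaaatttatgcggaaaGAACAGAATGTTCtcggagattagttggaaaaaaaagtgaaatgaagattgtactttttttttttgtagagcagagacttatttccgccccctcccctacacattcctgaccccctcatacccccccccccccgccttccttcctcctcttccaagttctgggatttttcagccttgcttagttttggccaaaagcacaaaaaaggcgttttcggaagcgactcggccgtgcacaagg
Fam107a, chr14:8309728-8310027, minus strand: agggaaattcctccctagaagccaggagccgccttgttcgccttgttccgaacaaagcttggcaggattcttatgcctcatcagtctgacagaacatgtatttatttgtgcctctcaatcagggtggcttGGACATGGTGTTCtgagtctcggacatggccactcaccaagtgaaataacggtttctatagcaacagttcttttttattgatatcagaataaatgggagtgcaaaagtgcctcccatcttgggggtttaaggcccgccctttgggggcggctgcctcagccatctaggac

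The first question was whether these genes differed between the genotypes. None of the 27 member probe sets passed (limma, Benjamini-Hochberg adjusted p below 0.05 over 45037 probe sets), and neither did any other probe set, so the background was 0%. The smallest adjusted p among the members was 0.163. At unadjusted p below 0.05 there were 4 member probe sets, 1 higher and 3 lower in labelled knockout, or 14.8%. Over all probe sets the share was 12.6%, with 3.68% higher and 8.97% lower in labelled knockout. With 1 probe set per gene and the dimmest 40% of genes left out, 0.0733% of genes passed after adjustment and still no member. Of the 27 probe sets, 12 were higher (44.4%, against 34.9% of all probe sets) and 15 lower, with a median log2 difference of -0.16, against -0.13 over all probe sets. Taking for each gene its lead probe set, the one with the highest mean log2 value, 6 genes were higher and 4 lower, with a median of 0.07. Among the lead probe sets of all genes above their dimmest 40%, 49.1% were higher, with a median of -0.007. The median log2 signal over all probe sets was 5.344 to 5.518 on labelled knockout arrays and 5.585 to 5.926 on labelled wild-type arrays. These ranges did not overlap, and their part in the shares above was not tested beyond the scalings below. The split of the members depended on the scaling. Under quantile normalization 7 were higher, against 48.7% of all probe sets. When each array was centred on its median 9 were higher, against 68.2% of all probe sets. The shares of 48.7% and 68.2% include dim probe sets. Shares among the lead probe sets of all genes are not given for these settings. Centring adds one amount to every difference and moved the median over all probe sets to 0.15. Without WT replicate 1 the split was 4 higher and 6 lower (median -0.014), and without KO replicate 3 it was 5 and 5 (median -0.021).

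**Figure D1:**
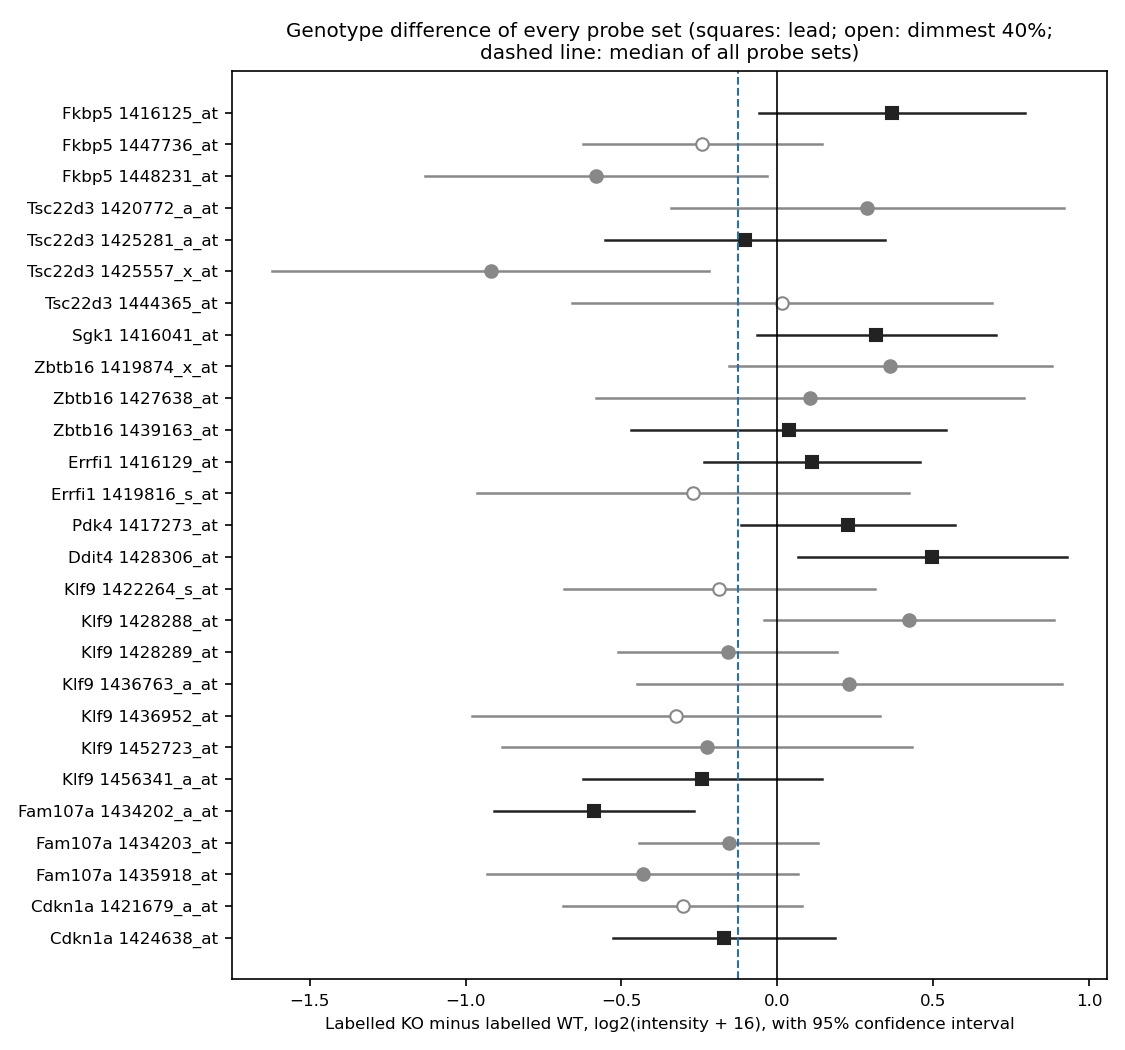
Difference of each of the 27 member probe sets, labelled KO minus labelled WT on the log2(intensity + 16) scale (x axis), with 95% confidence intervals from limma. Squares mark the lead probe set of a gene, open circles the 6 probe sets among the dimmest 40%, and the dashed line the median of all probe sets at -0.13. Points lie on both sides of the line at 0, and within Fkbp5, Tsc22d3, Errfi1 and Klf9 the probe sets point both ways.

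Among the genes that act on the receptor or on transcription, Fkbp5 encodes a co-chaperone of the glucocorticoid receptor that lowers its affinity for hormone, and its induction closes a feedback loop inside the cell. Its lead probe set 1416125_at gave signals of 813, 1018, 1212, 1058 and 1266 in labelled knockout mice, against 479, 856, 1213, 837 and 882 in labelled wild-type mice. The labelled knockout mice were mostly the higher ones, but the groups overlapped, because WT replicate 3 was as high as the upper labelled knockout mice and KO replicate 1 lay among the labelled wild-type mice. The log2 difference was 0.37 (SE 0.20, limma adjusted p = 0.457, 95% interval -0.06 to 0.79). Without WT replicate 1 it was 0.18, and with median centring 0.65. The second Fkbp5 probe set above the dimmest 40%, 1448231_at, ran the other way, at 33.9 to 68.3 (median 56.2) in labelled knockout and 50.3 to 128 (median 85.1) in labelled wild-type mice, a difference of -0.58 (SE 0.26, limma adjusted p = 0.369). Both probe sets carry the same accession in the annotation. Over the 10 arrays their deviations from the group means had r = 0.569, a description with no test. The remaining, dim probe set 1447736_at was at -0.24.

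Tsc22d3 encodes a leucine zipper protein that binds and restrains inflammatory transcription factors, and is among the most general glucocorticoid targets. Probe set 1425281_a_at gave 272, 209.8, 256, 305 and 171 in labelled knockout mice, against 176, 375, 308, 245 and 225 in labelled wild-type mice. Every labelled knockout value but the lowest lay within the labelled wild-type range, and the difference was -0.10 (SE 0.21, limma adjusted p = 0.864, interval -0.55 to 0.35). With the hybridization controls as a covariate it was 0.35, so its direction turned. Probe set 1425557_x_at gave 48.3 to 86.6 in labelled knockout and 63.5 to 291 in labelled wild-type mice, a difference of -0.92 (SE 0.33, limma adjusted p = 0.269), while 1420772_a_at was at 0.29 (SE 0.30) and at 0.038 without WT replicate 1. The first of these was high in WT replicates 1 and 2, at 260.02 and 291, where the other 3 labelled wild-type mice were between 63.5 and 101, and over the arrays it did not follow either of the other probe sets (r = -0.494 and -0.061). A probe set whose name ends in _x_at can bind transcripts of other genes.

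Zbtb16 and Klf9 encode zinc finger transcription factors. For Zbtb16, which acts mostly as a repressor, probe set 1439163_at gave 146, 332, 424, 241 and 230.5 in labelled knockout mice, against 208, 338, 285, 198 and 256 in labelled wild-type mice. The labelled knockout mice held both the lowest and the highest of the 10 values, and the difference was 0.04 (SE 0.24, limma adjusted p = 0.964, interval -0.47 to 0.54). The other 2 probe sets were at 0.36 (1419874_x_at, SE 0.25, 0.20 without WT replicate 4 and 0.22 without KO replicate 2) and 0.10 (1427638_at, SE 0.33).

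For Klf9, a mediator of hormone effects on neurons, the lead probe set 1456341_a_at gave 7489, 13035, 14517, 11116 and 10090.1 in labelled knockout mice, against 13411, 14259, 14503, 9311 and 14158 in labelled wild-type mice. Of the labelled wild-type mice 4 sat close together, and replicate 4 stood apart below them. The difference was -0.24 (SE 0.18, limma adjusted p = 0.600, interval -0.62 to 0.14) and turned to 0.06 with quantile normalization and 0.04 with median centring. Without KO replicate 1 it was -0.10. Klf9 had the most probe sets, 7. Of these, 1428288_at was at 0.42 (SE 0.22, limma adjusted p = 0.436, 0.28 without KO replicate 3) and 1428289_at at -0.16 (SE 0.17), although both carry the same accession and their deviations moved together (r = 0.676, a description). The 4 dimmest Klf9 probe sets never exceeded 50.01 and were between -0.32 and 0.23.

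Of the inhibitors of growth signalling, Ddit4 encodes a repressor of the mTOR kinase complex that senses nutrients. It gave 522, 945, 686, 965 and 814 in labelled knockout mice, against 406, 470.0, 855, 513 and 542 in labelled wild-type mice. Of the labelled wild-type mice 4 lay between 406 and 542, with WT replicate 3 above 3 of the labelled knockout mice. The difference was 0.50 (SE 0.21, interval 0.065 to 0.93), a 1.41-fold higher mean (limma adjusted p = 0.330 over all probe sets). It stayed between 0.40 and 0.66 when any 1 array was left out and was 0.42 with quantile normalization and 0.78 with median centring. Errfi1 encodes an inhibitor of the epidermal growth factor receptor. It gave 5043, 3332, 4282, 4135 and 3462 in labelled knockout mice, against 2722, 4529, 3258, 4083 and 4270.1 in labelled wild-type mice, and the groups were intermixed (difference 0.11, SE 0.17, limma adjusted p = 0.807). Without KO replicate 1 it was 0.028.

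Cdkn1a encodes an inhibitor of cyclin-dependent kinases that glucocorticoids and DNA damage both induce. Probe set 1424638_at gave 708, 840.4, 693, 693 and 933 in labelled knockout mice, against 659, 836, 1193, 761 and 972 in labelled wild-type mice. All labelled knockout mice lay inside the labelled wild-type range, at a difference of -0.17 (SE 0.17, limma adjusted p = 0.695), which turned to 0.11 with median centring and was -0.057 without WT replicate 3 and -0.27 without WT replicate 1.

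Among the genes of kinases, metabolism and the cytoskeleton, Sgk1 encodes a kinase that regulates ion channels and transporters. It gave 6813, 6353, 7563, 5943 and 4421 in labelled knockout mice, against 3694, 6359, 6133, 3861 and 5121 in labelled wild-type mice. The highest pair of values were labelled knockout and the lowest pair labelled wild-type, with the rest intermixed, at 0.32 (SE 0.18, limma adjusted p = 0.475, interval -0.07 to 0.70). It was 0.60 with median centring and 0.64 when the hybridization controls were a covariate. Pdk4 encodes a kinase that shuts off pyruvate dehydrogenase and so spares glucose. It gave 1309, 1192, 1216, 1335 and 1702 in labelled knockout mice, against 1085, 976, 1471, 904 and 1381 in labelled wild-type mice. No labelled knockout mouse was as low as WT replicates 1, 2 and 4, but replicates 3 and 5 lay within the labelled knockout range, and the difference was 0.23 (SE 0.16, limma adjusted p = 0.579). Without KO replicate 5 or WT replicate 4 it was 0.14. It was -0.02 when the hybridization controls were a covariate.

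**Figure D2:**
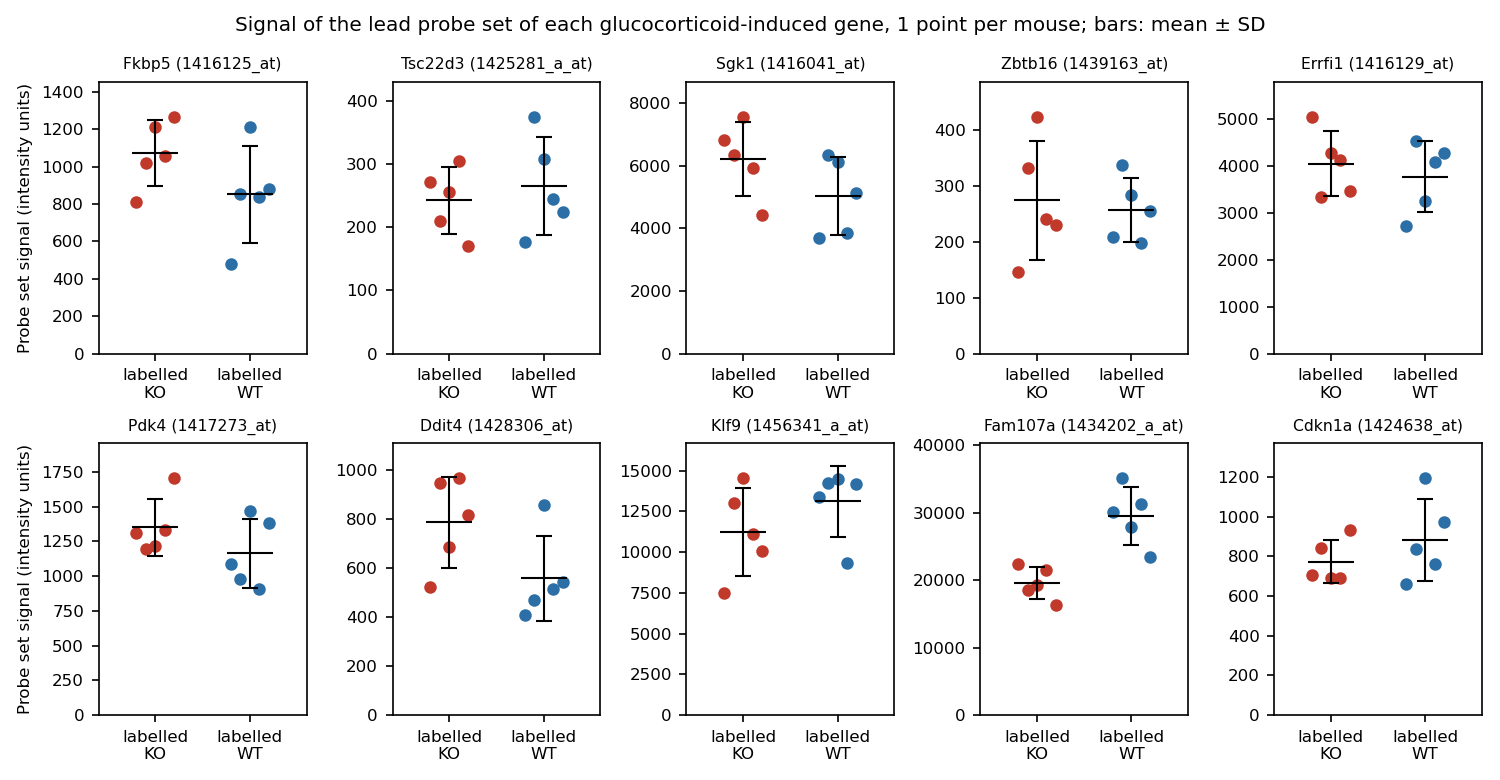
Signal of the lead probe set of each gene (y axis, intensity units, each panel with its own scale from 0), 1 point per mouse, labelled KO on the left and labelled WT on the right. Black bars are the mean ± SD (n = 5 each). The groups are apart in Fam107a, with 16311 to 22414 in labelled KO and 23453 to 35101 in labelled WT mice, and overlap in the other 9 genes.

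Fam107a encodes an actin-binding protein that stress and glucocorticoids induce in the brain, and it was the member with the smallest p. Probe set 1434202_a_at gave 22414, 18595, 19225, 21489.8 and 16311 in labelled knockout mice, against 30150.1, 35101, 27834, 31319 and 23453 in labelled wild-type mice. Every labelled knockout mouse lay below every labelled wild-type mouse, which was the case for 2.42% of all probe sets (3.22% with either group below the other). Those shares include dim probe sets. Among the lead probe sets of genes above their dimmest 40%, the groups were apart in either direction in 511 of 10916. The log2 difference was -0.59 (SE 0.15, limma adjusted p = 0.163, interval -0.91 to -0.27). The other Fam107a probe sets were at -0.16 (1434203_at, SE 0.14) and -0.43 (1435918_at, SE 0.24, both limma adjusted p above that of the lead). The size depended on the scaling: with quantile normalization the lead probe set was at -0.12 and 1434203_at at 0.01, and with median centring they were at -0.31 and 0.12.

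The Fam107a signal also followed the hybridization controls, as the plot of Fam107a against them shows. With the group means removed, r was 0.756 (exact permutation p = 0.0244) and rho 0.503 (exact permutation p = 0.192), adjusted p = 0.971 and 0.919 over 110 relations. Without the 2 arrays farthest from the median of the controls r was 0.041, so the relation rests on those arrays. On the 7 spike-positive arrays it was 0.561. With the controls as a covariate the difference was -0.32, and on the spike-positive arrays alone -0.60. The part of the hybridization signal in the difference was not tested further.

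The 110 relations set the 10 lead probe sets against the hybridization controls, 2 ratios of 3′ to middle probe sets of actin and Gapdh, and 8 cell type marker scores. The actin ratio was 4.315 to 5.022 (log2) in labelled knockout and 4.843 to 5.443 in labelled wild-type mice. For Gapdh it was 3.416 to 3.954 and 3.583 to 4.173. Signal was thus far higher at the 3′ end, and its part in probe sets of a gene that disagree was not tested. None passed after adjustment (smallest adjusted p = 0.971 by exact permutation), and 3 had an unadjusted p below 0.05. Besides Fam107a these were Tsc22d3 with the hybridization controls (r = 0.712, exact permutation p = 0.0379; rho 0.83, p = 0.0131; r = 0.824 without the 2 farthest arrays) and Sgk1 with the striatal marker score (r = 0.563, exact permutation p = 0.0465; rho 0.564, p = 0.061; r = 0.543 without the 2 farthest).

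The second question was whether the genes went up and down together from mouse to mouse. With each group's mean removed, r between lead probe sets was above 0 in 31 of the 45 pairs, 68.9%, against 50.3% of all pairs of 13490 genes above the dimmest 40%. The median r was 0.24, against 0.003 over all pairs. Pairs share genes and arrays and are not independent. The pairs ranged between -0.70 and 0.90, and 7 had an exact permutation p below 0.05.

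One pair passed after adjustment over the 45 pairs, Zbtb16 with Klf9 (r = 0.899, rho 0.927, exact permutation p = 0.000486 for both, adjusted p = 0.0219). Both genes were low in KO replicate 1, at -0.76 for Zbtb16 and -0.55 for Klf9 against the group mean, and high in KO replicate 3, at 0.68 and 0.40. In the labelled wild-type mice both were lowest in replicate 4. Without the 2 farthest arrays, KO replicates 1 and 3, r was 0.759, and it was 0.89 on the 7 spike-positive arrays. In each pair the farthest arrays were judged from the median of only the gene that comes first in the list of members, here Zbtb16. Only 0.037% of the other probe sets above the dimmest 40% had as high an r with Zbtb16. Other probe sets gave lower values, given as a description: with the same Zbtb16 probe set, Klf9 1428289_at had an r of 0.673, 1428288_at 0.473, 1452723_at 0.097 and 1436763_a_at -0.15. With the other 2 Zbtb16 probe sets r ran between -0.767 and 0.521. Its r was between 0.813 and 0.94 when any 1 array was left out, but the adjusted p was 0.127 with quantile normalization and 0.10 with median centring. It was also above 0.05 without KO replicates 1 to 4 or WT replicates 3 or 5, at 0.0938 to 0.289.

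**Figure D3:**
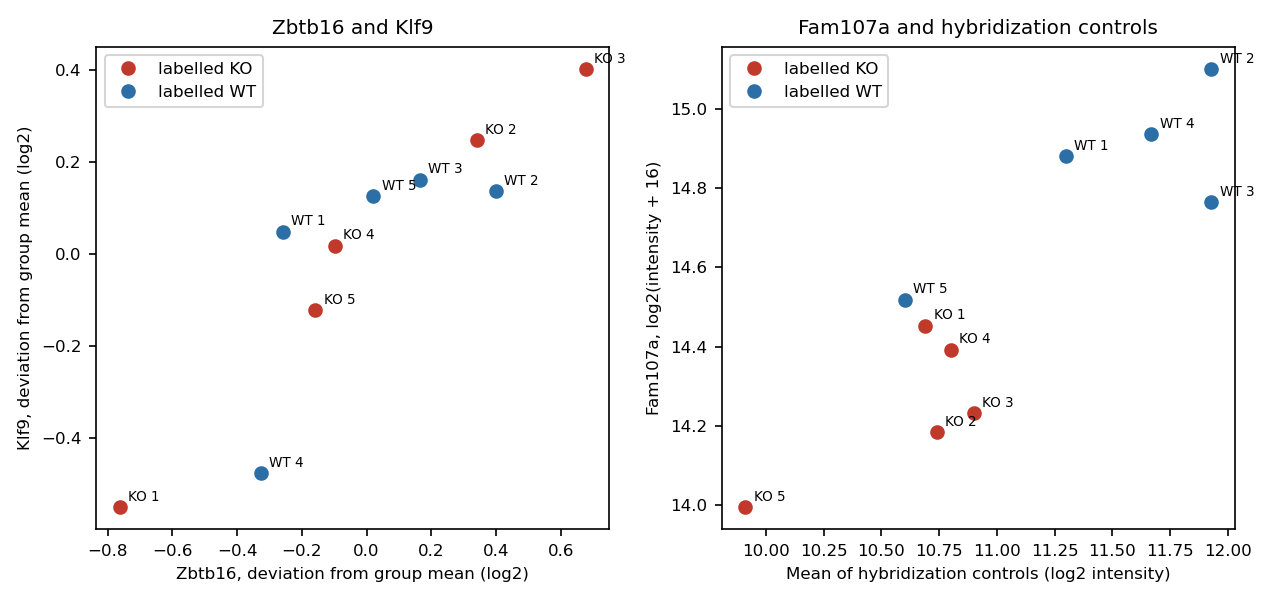
Left, deviation of Klf9 (y axis) against that of Zbtb16 (x axis) from the mean of its own group, in log2 units. Right, log2 signal of Fam107a (y axis) against the mean log2 signal of the hybridization controls (x axis). Each point is 1 mouse, labelled by group and replicate. On the left the points run from KO 1 at the lower left to KO 3 at the upper right (r = 0.899). On the right the labelled KO arrays lie at 9.91 to 10.9 and the labelled WT arrays at 10.6 to 11.93 on the x axis.

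The remaining pairs fell into sets that did not pass after adjustment. For Cdkn1a, last in the list of members, the 2 farthest arrays were those of the other gene. Cdkn1a went with Fkbp5 (r = 0.786, rho 0.636, exact permutation p = 0.0252 and 0.0667; r = 0.381 without the 2 farthest arrays), with Pdk4 (r = 0.739, rho 0.636, p = 0.0369 and 0.108; 0.379) and with Ddit4 (r = 0.712, rho 0.576, p = 0.0346 and 0.102; 0.56). Fkbp5 also went with Ddit4 (r = 0.723, rho 0.503, exact permutation p = 0.0409 and 0.167; 0.451 without the 2 farthest). All 4 had an adjusted p of 0.274 for r, and the pairs of Fkbp5 with Cdkn1a and with Ddit4 and of Pdk4 with Cdkn1a rest largely on WT replicate 3, which was high in all 4 genes, together with WT replicate 1 or KO replicate 5. With Fkbp5 1448231_at in place of the lead, r was 0.322 with Cdkn1a and 0.114 with Ddit4. On the 7 spike-positive arrays the 4 pairs of lead probe sets were between 0.733 and 0.876.

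Tsc22d3 went with Sgk1 (r = 0.782, rho 0.721, exact permutation p = 0.0181 and 0.0407, adjusted p = 0.274 and 0.482; 0.637 without the 2 farthest arrays and 0.775 on the 7 spike-positive arrays). The Tsc22d3 probe sets 1420772_a_at and 1425557_x_at had r = 0.323 and 0.033 with Sgk1. Both lead probe sets also had an r above 0 with the hybridization controls, 0.712 for Tsc22d3 and 0.541 for Sgk1. For Sgk1 the exact permutation p was 0.14 (adjusted 0.971), and r was 0.784 without the 2 farthest arrays and 0.841 on the spike-positive arrays. The part of the hybridization signal in this pair was not tested. Pdk4 ran against Fam107a (r = -0.698, rho -0.576, exact permutation p = 0.0426 and 0.127, adjusted p = 0.274 and 0.482; -0.629 without the 2 farthest arrays). With the Fam107a probe set 1435918_at in place of the lead it was 0.701, so the sign depends on the probe set. Fkbp5 and Tsc22d3, both general targets of the receptor, had r = 0.36 and rho 0.152 with each other, and r = -0.36 without the 2 farthest arrays, WT replicates 1 and 3, values given as a description. Fam107a had a median r of -0.32 with the other members and was above 0 with 3 of 9, while Fkbp5, Sgk1 and Ddit4 had medians of 0.39.

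By mouse, WT replicate 1 was below its group mean in 8 of the 10 genes and the lowest of its group in 6, with a median deviation of -0.39, against 0.01 over all genes on that array. WT replicate 3 was above its group mean in 8 of 10 and the highest in 5, with a median deviation of 0.28, against -0.01 (log2) over all genes. WT replicate 2 was the highest in the other 5, and WT replicate 5 was above its group mean in 8 of 10 by less, with a median deviation of 0.08. In labelled knockout mice the median deviations were between -0.14 and 0.10, and no mouse was on one side in more than 6 of 10 genes. WT replicates 4 and 5 were within that range as well, at -0.13 and 0.08, and WT replicate 2 was at 0.20. Without WT replicate 1 the median r over the pairs was 0.13, the lowest when any 1 array was left out, and 24 of 45 pairs were above 0.

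**Figure D4:**
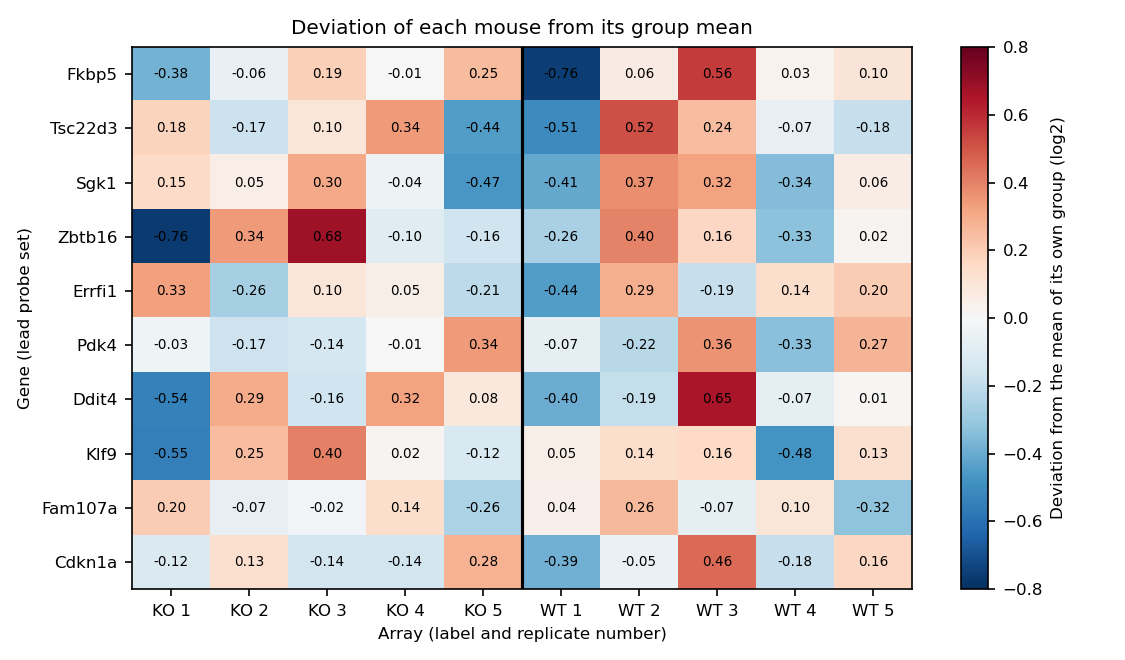
Deviation of each mouse from the mean of its own group (colour and printed number, log2 units), for the lead probe set of each gene (rows) on each array (columns, labelled KO left of the line and labelled WT right of it). WT 1 is blue in 8 of 10 rows and WT 3 red in 8 of 10, and Zbtb16 and Klf9 share their pattern with KO 1 low and KO 3 high.

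The spread between mice was ordinary for most members. The SD within groups of the lead probe sets had a median of 0.33 on the log2 scale, against 0.32 over the lead probe sets of all genes above their dimmest 40%. The 2 brightest Fam107a probe sets varied least, with SDs of 0.20 and 0.16 for 1434202_a_at and 1434203_at, higher than in 7.48% and 2.39% of probe sets above the dimmest 40%, while 1435918_at was at 0.38 and percentile 48.8. The Tsc22d3 probe set 1425557_x_at varied most among the brighter ones, with an SD of 0.64 at percentile 89.9.

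Of the genes outside the members, those whose lead probe sets tracked Fkbp5 best over the 10 arrays, group means removed, were Suz12 (r = 0.954), Rras2 and Fam219b (both 0.941), Ppp2r1a (0.937) and Anxa9 (0.934), out of 13480 genes. For Tsc22d3 they were Hykk (0.938), Pyy (0.929), Hmmr (0.924), Eri1 (0.92) and Whrn (0.919). These are the highest of many values on few arrays, given as a description with no test, and the 2 sets share no gene. By rank the likeness to Fkbp5 ran between rho 0.442 (Anxa9) and 0.927 (Ppp2r1a), and that to Tsc22d3 between 0.891 and 0.976.

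The machinery of the receptor was examined through a list of receptors, chaperones, steroid enzymes and coregulators, of which 10 of 14 genes had a probe set naming 1 gene. Of these, 4 were higher and 6 lower, and none passed (limma; 1 at unadjusted p below 0.05, or 10%, against 16.4% of lead probe sets of all genes above their dimmest 40%). Nr3c1, the glucocorticoid receptor gene, gave 707, 595, 931, 585 and 647 in labelled knockout mice, against 545, 476, 440.4, 523 and 596 in labelled wild-type mice. WT replicate 5 was the only labelled wild-type mouse above a labelled knockout mouse, and the difference was 0.40 (SE 0.16, limma adjusted p = 0.319). The mean of all Nr3c1 probe sets was at -0.10, so the direction turned with the choice of probe set. The chaperone gene Stip1 was at -0.34 (SE 0.25), Hsd11b1, whose enzyme regenerates active hormone inside cells, at -0.28 (SE 0.29), and the coactivator gene Ncoa2 at 0.20 (SE 0.16). Leaving out 1 array moved Stip1 to -0.16 (WT replicate 4) or -0.22 (KO replicate 5), Hsd11b1 to -0.13 (WT replicate 1), -0.15 (KO replicate 5), -0.17 (WT replicate 5) or -0.50 (WT replicate 2), and Ncoa2 to 0.13 (KO replicate 1).

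Of 15 other genes known to be induced by glucocorticoids, 8 were higher and 7 lower, with a median of 0.12, and none passed (limma; 3 at unadjusted p below 0.05, or 20%, all lower, against the same 16.4%). The metallothionein gene Mt2, whose product binds zinc and copper, gave 30084, 16411, 23042, 30004 and 21066 in labelled knockout mice, against 25374, 67350, 35012, 48148 and 31677 in labelled wild-type mice. WT replicate 1 was the only labelled wild-type mouse inside the labelled knockout range, and the difference was -0.73 (SE 0.24, limma adjusted p = 0.224). Mt1 was at -0.43 (SE 0.17, limma adjusted p = 0.304) and Nfkbia, which encodes an inhibitor of NF-kB, at -0.42 (SE 0.20, limma adjusted p = 0.382). These 3 were smaller with quantile normalization, at -0.19 for Mt2, 0.06 for Mt1 and -0.04 for Nfkbia, as was Fam107a. All were very bright, with mean log2 values of 14.9 (Mt2), 14.7 (Mt1), 14.1 (Nfkbia) and 14.5 (Fam107a 1434202_a_at). The part of brightness in their differences was not tested. The lipid droplet gene Plin4 was at -0.52 (SE 0.33, limma adjusted p = 0.512), at -0.87 without WT replicate 2 and -0.31 without WT replicate 4.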

How the data were processed

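The authors deposited linear intensities per probe set; the submitters' processing notes name GCOS, with no version or settings. Each of the 10 deposited arrays had a mean of 200.002 without the lowest and highest 2% of values, so the authors' values had been scaled by array. The number of arrays limits the precision. Probe sets were named from GEO's platform annotation, of unknown age. Among 45037 probe sets besides 64 controls, 34945 named 1 gene, 932 several and 9160 none. Of those with 1 gene, 34741 matched RefSeq (GRCm38.p6) by Entrez ID.

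Values were tested as log2(intensity + 16), which understates the change of dim genes, by limma 3.58.1 (lmFit, eBayes with an intensity trend; R 4.3.3), labelled knockout minus labelled wild-type, over all non-control probe sets. The dimmest 40% lay below a mean log2 of 5.09. This mark was passed by 21 of the 27 member probe sets, including all 10 lead probe sets (highest mean, _x_at only if no other). The other 6 stayed at or below 40.7 in signal on every array. Correlations used deviations from group means and an exact permutation test over the 14400 exchanges of arrays within groups, two-sided, adjusted by Benjamini-Hochberg. Figures used Python 3.11.15 and matplotlib 3.10.9. The tests were tried on simulated data with known changes.

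Named genes were all members, Ptges, the 4 genes with the smallest p of each of 2 other lists, and the 5 with the highest r with Fkbp5 and with Tsc22d3. The members, lists and tests were chosen with earlier results of these data known. Same-numbered arrays of the groups did not deviate together. No pair of arrays held equal values at more than 0.00443% of probe sets. The descriptions give each array a separate mouse, so the spread behind each p-value holds differences between mice along with those of dissection, amplification and array.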

Additional observations from a re-analysis of the deposited data

Results flagged for a closer look

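A single mouse stood apart from the other 4 of its group in 4 of 76 comparisons over the named probe sets, judged by the gap to its nearest neighbour as a share of the group's range (critical value 0.71). Chance flags about 1 in 20 groups, or 3.8 here. Of these, 3 were in Klf9. WT replicate 4 was low for the lead probe set 1456341_a_at, at 9311, with a gap of 0.823 of the range. WT replicate 2 was high for 1428288_at, at 4606, with a gap of 0.805. KO replicate 2 was low for the dim probe set 1422264_s_at, at 0.53, with a gap of 0.783. The fourth was the chaperone gene Stip1, low in KO replicate 5 at 52.1, with a gap of 0.883.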

How the results depend on the processing

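No member probe set passed under any of the 14 other settings or when any of the 10 arrays was left out. Over all probe sets the count of 0 (limma, 5696 at unadjusted p below 0.05) became 550 with median centring (545 higher, 5 lower), 8 with 1 probe set per gene and the dimmest 40% left out, 1 with all probe sets of a gene averaged, 1 with the replicate number as a block, and 0 to 1 when 1 array was left out. Same-numbered arrays had correlations of -0.0919 to 0.0445, and 1 of 10 arrays correlated best with its own number. No pairing by number was seen, although this check cannot exclude a weak one. The replicate block called no member. Direction turned in 44 of 855 recomputed differences, in 17 of the 27 member probe sets and 5 others. Some of the settings repeat the main difference and cannot turn it. These leave out dim probe sets, take 1 probe set per gene, omit the intensity trend or block by replicate number. Median centring adds the same amount to every difference, so its turns follow from the scaling. The cause of the other turns was not tested. With quantile normalization Klf9 turned to 0.12 (1428289_at) and 0.056 (1456341_a_at), Fam107a 1434203_at to 0.013 and Mt1 to 0.059. With median centring Fkbp5 1447736_at was at 0.04, Tsc22d3 1425281_a_at at 0.18, Errfi1 1419816_s_at at 0.01, Klf9 at 0.094 (1422264_s_at), 0.12 (1428289_at), 0.055 (1452723_at) and 0.04 (1456341_a_at), Fam107a 1434203_at at 0.12, Cdkn1a 1424638_at at 0.11 and Hsd11b1 at 0.001. With all probe sets averaged by gene, Fkbp5 was at -0.15, Errfi1 at -0.08, Nr3c1 at -0.10 and Ncoa2 at -0.24. With the hybridization controls as a covariate Tsc22d3 was at 0.35 (1425281_a_at) and -0.34 (1444365_at), Errfi1 1419816_s_at at 0.23, Pdk4 at -0.023, Klf9 at 0.17 (1428289_at), 0.17 (1436952_at) and 0.42 (1452723_at) and Ncoa2 at -0.045. Tsc22d3 1444365_at was at -0.02 with a pseudocount of 64 and -0.008 with array weights, and Klf9 1436763_a_at at -0.14 on the 7 spike-positive arrays. Leaving out 1 array gave ranges across 0 for Tsc22d3 1425281_a_at (-0.23 to 0.024) and 1444365_at (-0.21 to 0.15), Zbtb16 1427638_at (-0.10 to 0.32) and 1439163_at (-0.13 to 0.23), Klf9 1436763_a_at (-0.024 to 0.45) and Ptges 1449450_at (-0.027 to 0.47), and Errfi1 1416129_at ran between 0.00 and 0.18. The median r over member pairs was 0.18 with group means kept, 0.11 without the 2 farthest arrays of each pair and 0.13 to 0.32 when 1 array was left out. The count of 1 pair past the threshold was 0 with quantile normalization, 0 with median centring and 0 on the 7 spike-positive arrays, and 0 to 1 when 1 array was left out; fewer arrays allow fewer arrangements.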
